A study of Mus musculus with 12 samples.

Results

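The enzymes that turn squalene epoxide into lanosterol and lanosterol into cholesterol form the sterol arm of the pathway, and 9 of their genes are described here in an erythroid cell line with and without forced SREBP2 activity. The rows of the deposited count table whose symbol was Lss, Cyp51, Tm7sf2, Msmo1, Nsdhl, Hsd17b7, Ebp, Sc5d or Dhcr7 were taken, and all 9 were present among 17210 genes. All 9 passed the filter on low counts, as did 11177 genes in all. G1E-ER4 is 1 mouse cell line that lacks its own GATA1 and carries in its place a GATA1 that is fused to the estrogen receptor and becomes active when β-estradiol (EST) is added. Every group was transduced for 24 h with a retrovirus, either empty (Vector) or encoding an active SREBP2 fragment of residues 1 to 468 (SREBP2). Cells then received vehicle or EST for 6 h, which gave the groups Vector, Vector+EST, SREBP2 and SREBP2+EST with 3 libraries each and 12 in all. The sample protocol gives the EST dose as 500 nM and the series design as 200 nM. The labels give the strain as C57BL/6J and call the cells embryonic stem cells, and nothing in them says that the 3 libraries of a group came from separate cultures, so the p-values measure the spread between these libraries, which may be technical. Library numbers are those of the table's column names and differ from the numbers in the sample titles.

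Cells make cholesterol from acetyl-CoA, first as an isoprenoid chain that is closed into lanosterol, and then by demethylation, double bond shifts and reductions of the ring. SREBP2 is a membrane-bound transcription factor that is released when sterols run low and binds sterol regulatory elements in the promoters of these genes, and the introduced fragment is the released form. During terminal erythroid differentiation GATA1 is the leading transcription factor, and the cells change their membrane content as they shrink and lose the nucleus.

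The 12 libraries held 18700959 to 19152281 counts. The 17 erythroid markers were all present in every library, with a summed level of 8093 to 11221 CPM (counts scaled to a common library size by TMM), while the 7 embryonic stem cell markers that the table holds, of 12 listed, summed to at most 0.917 CPM. Srebf2, the check of the introduced gene, stood at 370.4, 358 and 355 CPM in Vector libraries and at 815, 837 and 797 CPM in SREBP2 libraries, where transcripts of the own gene and of the introduced fragment were not separated. The study measured human SREBP2 as the introduced gene in transduced cells of this line and describes a FLAG-tagged fragment of the same length as human for another vector. It gives no species for the retroviral vector itself, and the mouse Srebf2 row may count only part of the fragment's reads and is a limited check. The libraries labelled SREBP2 lay close to those labelled SREBP2+EST, with a root mean square log2 distance of 0.334 to 0.351 against 0.294 to 0.316 within the SREBP2 group, and 0 of 11177 genes passed edgeR's quasi-likelihood test between both groups (284 higher and 222 lower at an unadjusted p under 0.05, and 1 higher and 11 lower by DESeq2). That count rests on library 1 of each group, which stood apart from the others of its group, and without both libraries 698 genes were higher and 869 lower. Of the 17 erythroid markers, EST in Vector cells lowered 11 and raised 5 (35.5% of all genes fell and 35.2% rose). In SREBP2 against Vector 10 were lower and 5 higher (33.8% and 37.7% of all genes). The markers with the largest rise and the largest fall with EST, of the 17, had also moved in the SREBP2 libraries without EST. Alas2, the first enzyme of heme synthesis in red cells, was 2.64-fold higher than in Vector in the Vector+EST libraries and 3.38-fold higher in the SREBP2 libraries. Slc4a1, the red cell anion exchanger, was 23.6-fold and 16.7-fold lower. A difference between SREBP2 and Vector therefore cannot be told apart from a state of the SREBP2 libraries that resembled EST treatment. SREBP2+EST and Vector+EST, by contrast, both had EST. The study itself reports most differential genes as common to forced SREBP2 and EST treatment. By protein blot it also found the GATA1 fusion in the nucleus after forced SREBP2 without EST. What part this had in these libraries was not tested here. Library 1 of SREBP2 and library 1 of SREBP2+EST stood nearest to the other group, at 0.334 and 0.331. Vector+EST library 5 had a summed stromal marker level of 37.1 CPM over 11 genes, against 6.17 and 6.24 CPM in the other Vector+EST libraries. The sum was 24.0 to 41.0 CPM in SREBP2+EST, 20.7 to 21.5 CPM in Vector and 10.1 to 15.98 CPM in SREBP2. In Vector the sum was mostly Col1a2 (18.9, 19.9 and 19.6 CPM), and 2 of the 11 genes were over 1 CPM there, against 6 in Vector+EST library 5 and 6, 7 and 6 in the SREBP2+EST libraries. Col1a1 stood at 6.50, 13.8 and 6.84 CPM in SREBP2+EST and at 13.4 CPM in Vector+EST library 5. It was at 0 in the other Vector+EST libraries and at most 0.0542 CPM elsewhere. Thy1 went the other way, at most 0.0539 CPM in SREBP2+EST against 1.43 to 1.44 CPM in Vector. Pdgfrb was 4.61 to 8.45 CPM in SREBP2, 5.01 to 9.15 CPM in SREBP2+EST and at most 0.159 CPM in the Vector groups. In SREBP2+EST against Vector, 5 of the 7 stromal markers tested were higher and 2 lower (38.6% and 34.2% of all genes). In SREBP2+EST against Vector+EST, 1 was higher, 1 lower and 5 not called (14% and 7.94% of all genes), from Thy1 (log2 -5.34) to Pdgfrb (6.41). Without Vector+EST library 5 this comparison called the same 9 of 9 genes higher. Fits without Vector+EST library 5, and without library 1 of both SREBP2 groups, are given where they changed the call of 1 of the 9 genes.

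Promoter stretches are printed for 5 of the 9 genes, because the genes moved together with SREBP2 but apart with EST. They come from the RefSeq promoter table of build GRCm38.p6, run 5′ to 3′ on the strand of the gene, lie before the annotated start and hold no GENCODE exon base of the gene. Capitals mark the letters ATTGG or CCAAT (the CCAAT box) and the letters TCACNNCA (here called SRE-like, chosen after the promoters of these genes were read), each searched on both strands. Cyp51 and Hsd17b7 are shown because they carry the same 8 letters, TCACCTCA, Sc5d because it carries TCACATCA, and Lss and Ebp because they carry none although both rose strongly with SREBP2. Cyp51 lies at chr5:4104747-4104877 (minus strand), Hsd17b7 at chr1:169969242-169969375 (minus), Sc5d at chr9:42264301-42264430 (minus), Lss at chr10:76531455-76531586 (plus) and Ebp at chrX:8193513-8193642 (minus).
Cyp51: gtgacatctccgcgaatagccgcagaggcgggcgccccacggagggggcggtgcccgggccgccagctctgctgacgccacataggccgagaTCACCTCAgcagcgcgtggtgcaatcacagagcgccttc
Hsd17b7: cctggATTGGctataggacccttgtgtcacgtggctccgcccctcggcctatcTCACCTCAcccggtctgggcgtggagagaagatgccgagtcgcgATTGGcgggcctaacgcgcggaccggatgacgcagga
Sc5d: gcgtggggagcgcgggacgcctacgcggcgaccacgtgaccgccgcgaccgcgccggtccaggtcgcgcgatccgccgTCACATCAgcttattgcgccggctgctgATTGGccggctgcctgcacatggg
Lss: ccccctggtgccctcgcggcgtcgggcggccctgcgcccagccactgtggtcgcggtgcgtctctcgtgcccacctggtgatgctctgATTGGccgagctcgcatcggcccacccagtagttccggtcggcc
Ebp: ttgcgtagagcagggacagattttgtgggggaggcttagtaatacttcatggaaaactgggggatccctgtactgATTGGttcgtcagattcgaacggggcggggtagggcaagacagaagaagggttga

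In windows from 250 bases before to 50 after the start, the CCAAT box was found in 9 of 9 genes, against 37.4% of 32851 promoter windows and 44.5% of 9055 tested genes with a window. The GC box GGGCGG was likewise found in 9 of 9, against 35.7% of windows and 67.3% of tested genes. SRE-like letters were found in Cyp51, Msmo1, Nsdhl, Hsd17b7, Sc5d and Dhcr7, 6 of 9 against 13.8% of windows and 13.6% of tested genes. They were chosen after the promoters of these genes were read, so that share is no test of them. Of 6 genes with a window for the enzymes before the branch, 2 carried them. The stricter letters TCACNCCAC (SRE) were found in 0 of 9, against 1.2% of windows and 1.3% of tested genes. The E-box CACGTG was found in 3 of 9 (7.2% of windows and 11.8% of tested genes) and GATA letters (AGATAA or AGATAG, and the forms TGATAA and TGATAG with T as the first letter) in 2 of 9, Hsd17b7 and Dhcr7 (29.8% of windows and 23.0% of tested genes, near the members' share). In Hsd17b7 the GATA letters, on the opposite strand, start at base -122 and overlap the SRE-like letters that start at -117, and in Msmo1 a CCAAT box at -96 overlaps SRE-like letters at -92. Dhcr7 has 3 annotated starts, and its matches are spread over 3 windows. These are matches of letters and not binding sites, and the first transcribed bases of 6 of the 9 genes matched the start of a GENCODE transcript.

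**Figure D1:**
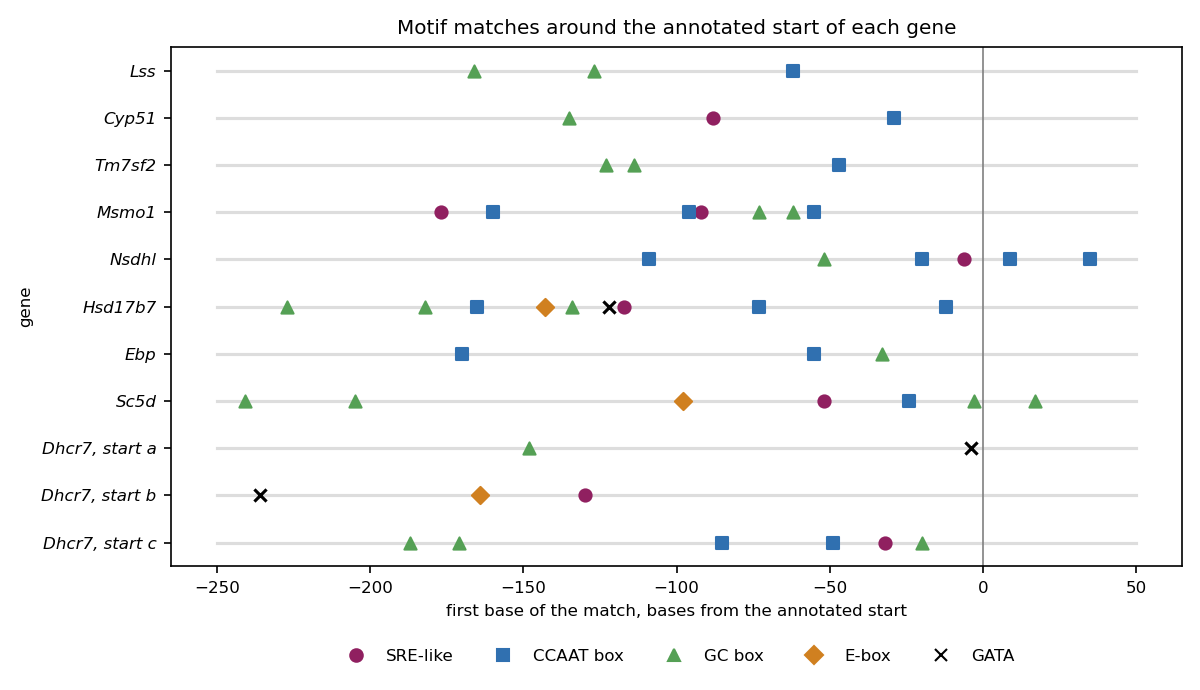
Positions of motif matches around the annotated start of each of the 9 genes, with Dhcr7 drawn once for each of its 3 starts. The horizontal axis gives the first base of a match in bases from the start, grey lines span the window searched, and symbols name the motif. Cyp51, Lss, Tm7sf2 and Sc5d carry their single CCAAT box within the last 62 bases before the start, and Lss, Tm7sf2 and Ebp carry no SRE-like match.

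The whole branch rose with SREBP2. With EST in both groups, 9 of 9 rose in SREBP2+EST over Vector+EST (14% of all genes tested rose), with a median log2 difference of 1.93 against -0.00 over all genes. The differences ran from 1.06 for Msmo1 to 3.14 for Tm7sf2, and for all 9 the libraries of both groups did not overlap. In such bulk RNA, fewer cells of one kind and less RNA per cell cannot be told apart. Without EST 9 of 9 rose over Vector (37.7% of all genes rose and 33.8% fell), from 1.48 for Msmo1 to 3.01 for Tm7sf2, with a median of 1.90 against 0.03 over all genes. EST alone split the branch: in Vector cells 2 genes rose, Ebp and Msmo1 (35.2% of all genes rose), 4 fell, Cyp51, Hsd17b7, Sc5d and Dhcr7 (35.5% of all genes fell), and Lss, Tm7sf2 and Nsdhl did not pass the test. These shares are near the background of each direction. Lss was called lower without Vector+EST library 5 (log2 -0.12, edgeR adjusted p = 0.0238), and Lss (log2 -0.11, adjusted p = 0.00512) and Tm7sf2 (log2 -0.17, adjusted p = 0.0302) were without both libraries 1.

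**Figure D2:**
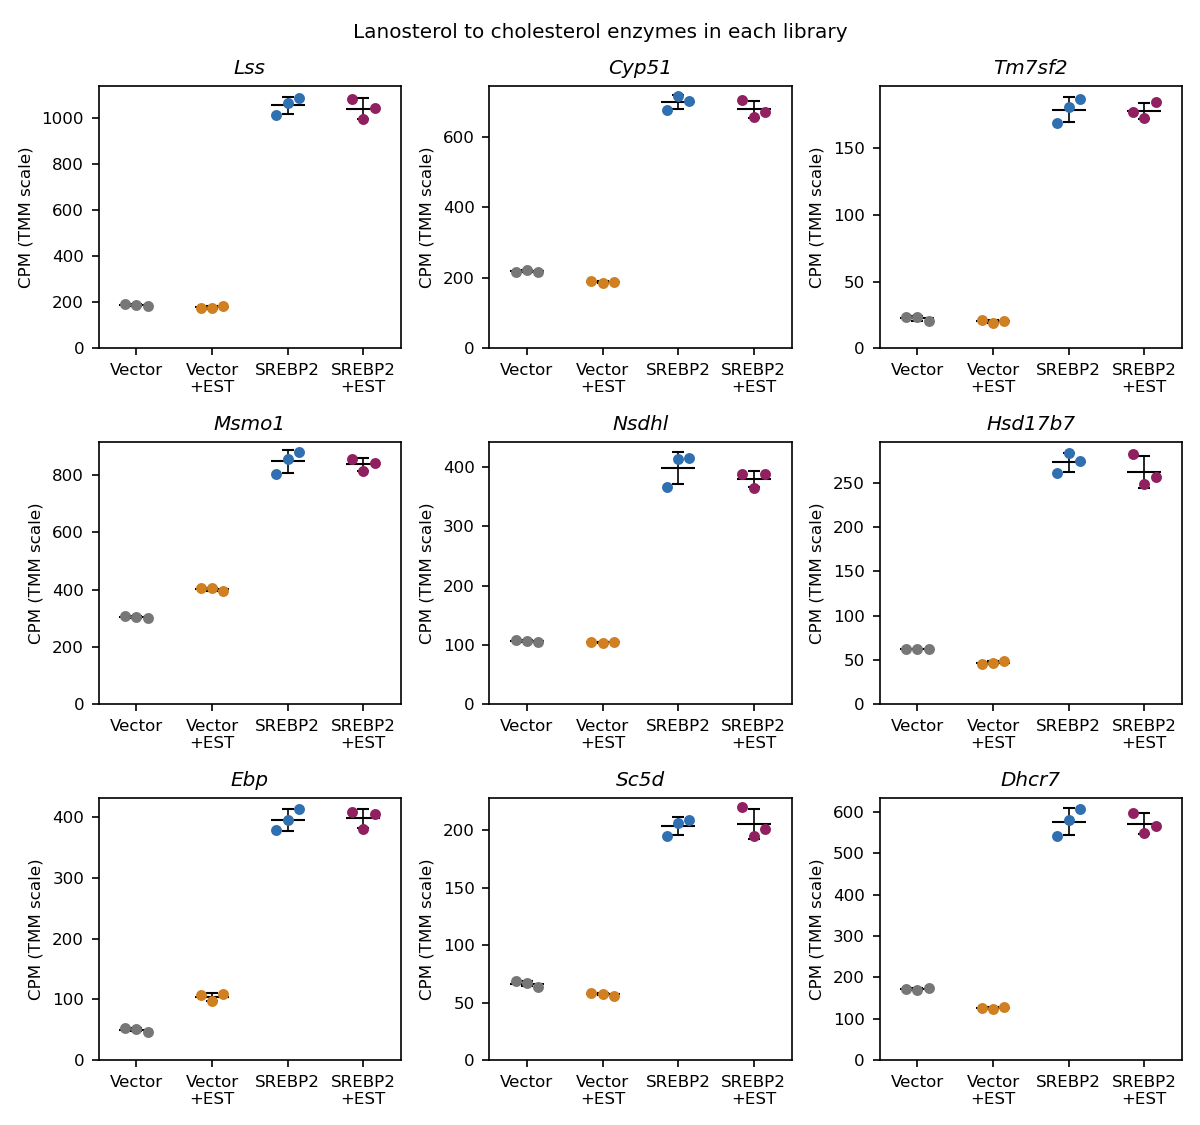
CPM (TMM scale) of each of the 9 genes in all 12 libraries. Points are libraries, the bar is the mean of the 3 libraries of a group and the whisker is ±1 SD. SREBP2 and SREBP2+EST libraries lie above both Vector groups for every gene and overlap each other, and Ebp and Msmo1 are higher in Vector+EST than in Vector.

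Lss (Entrez 16987, GRCm38 chr10:76531588-76557138, plus strand), lanosterol synthase, closes squalene epoxide into the first sterol of the branch. It stood at 189, 187 and 183 CPM in Vector, 175, 172 and 184 CPM in Vector+EST, 1013, 1064 and 1087 CPM in the SREBP2 group and 1083, 995 and 1042 CPM in SREBP2+EST. Vector and Vector+EST overlapped, and every SREBP2 library lay far above them. The EST difference in Vector cells was -0.07 ± 0.04 (SE, edgeR adjusted p = 0.122), and the SREBP2 difference was 5.87-fold with EST (log2 2.55 ± 0.04, adjusted p = 5.19e-16) and 5.66-fold without. Lss was 15.7% ± 0.0907 (SD, n = 3) of the summed CPM of the 9 genes in Vector and 22.8% ± 0.109 in SREBP2+EST.

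Cyp51 (Entrez 13121, chr5:4081145-4104746, minus), the lanosterol demethylase, is the cytochrome P450 that takes the first methyl group off lanosterol. Its levels were 217, 222 and 218 CPM in Vector, 192, 185 and 188 CPM in Vector+EST, 677, 716 and 703 CPM in the SREBP2 group and 704, 658 and 672 CPM in SREBP2+EST. Vector+EST lay below Vector without overlap, and the fall was small beside the rise with SREBP2. EST lowered it by 1.16-fold in Vector cells (log2 -0.22 ± 0.04, edgeR adjusted p = 5.71e-05), and SREBP2 raised it with EST (log2 1.85 ± 0.04, adjusted p = 1.98e-15).

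Tm7sf2 (Entrez 73166, chr19:6062821-6068373, minus), a sterol reductase, acts after Cyp51. It stood at 23.4, 23.0 and 20.2 CPM in Vector and at 21.2, 18.9 and 20.5 CPM in Vector+EST. SREBP2 libraries held 169, 182 and 187 CPM and SREBP2+EST libraries 177, 173 and 185 CPM. It had the largest SREBP2 difference of the 9, at 8.80-fold with EST (log2 3.14 ± 0.06, edgeR adjusted p = 1.98e-15) and 8.07-fold without. Its 5′ end shares 532 exon bases on the same strand with Vps51, and reads from those bases could belong to either gene, although the counts of both genes were whole numbers in all 12 libraries. Vps51 itself differed by 0.01 ± 0.05 with EST (adjusted p = 0.892) and by -0.14 ± 0.05 without EST (adjusted p = 0.0168), a call that was lost without SREBP2 library 1 (adjusted p = 0.0731).

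The C4-demethylation complex removes the remaining methyl pair through Msmo1, Nsdhl and Hsd17b7 in turn. Msmo1 (Entrez 66234, chr8:64718139-64733792, minus), the methyl oxidase, stood at 308, 304 and 300.5 CPM in Vector and at 404, 405 and 394 CPM in Vector+EST, a rise of 1.32-fold (log2 0.40 ± 0.04, edgeR adjusted p = 7.10e-08). Nsdhl (Entrez 18194, chrX:72918557-72958514, plus), the decarboxylating dehydrogenase, stood at 108, 107 and 105 CPM in Vector and 105, 103 and 104 CPM in Vector+EST and did not pass the test (log2 -0.03 ± 0.05, adjusted p = 0.582). Hsd17b7 (Entrez 15490, chr1:169949535-169969241, minus), the ketosteroid reductase, stood at 62.0, 62.0 and 62.8 CPM in Vector and 45.2, 46.2 and 48.3 CPM in Vector+EST, a fall of 1.34-fold (log2 -0.42 ± 0.06, adjusted p = 4.20e-06). The Vector and Vector+EST libraries did not overlap for Msmo1 and Hsd17b7 and did for Nsdhl.

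With SREBP2 and EST the same 3 genes rose like the rest of the branch (14% of all genes rose). Msmo1 held 805, 856 and 881 CPM in the SREBP2 group and 856, 813 and 843 CPM in SREBP2+EST, and its rise of 2.09-fold with EST (log2 1.06 ± 0.04, edgeR adjusted p = 1.48e-12) was the smallest of the 9. Nsdhl held 367, 413 and 416 CPM in the SREBP2 group and 388, 365 and 389 CPM in SREBP2+EST, a rise of 3.65-fold with EST (log2 1.87 ± 0.05, adjusted p = 3.28e-14). Hsd17b7 held 262, 284 and 275 CPM in the SREBP2 group and 283, 248.6 and 257 CPM in SREBP2+EST, a rise of 5.64-fold with EST (log2 2.50 ± 0.05, adjusted p = 3.09e-15). In all 3 genes SREBP2 and SREBP2+EST overlapped.

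Ebp (Entrez 13595, chrX:8185329-8193512, minus), the isomerase that shifts a double bond within the ring, had the largest EST difference of the branch. It stood at 52.7, 50.4 and 46.9 CPM in Vector, 107, 97.1 and 109 CPM in Vector+EST, 378, 396 and 413 CPM in the SREBP2 group and 408, 380.3 and 406 CPM in SREBP2+EST. Every Vector+EST library lay above every Vector library and below every SREBP2 library. EST raised it by 2.08-fold in Vector cells (log2 1.06 ± 0.06, edgeR adjusted p = 9.80e-11). With EST in both groups SREBP2 raised it by 3.82-fold (log2 1.93 ± 0.05, adjusted p = 7.52e-14). Without EST it was 7.91-fold higher in SREBP2 than in Vector (log2 2.98 ± 0.06). That difference cannot be told apart from the state of the SREBP2 libraries that resembled EST treatment. Its share of the summed CPM of the 9 genes was 4.21% ± 0.20 (SD, n = 3) in Vector and 8.51% ± 0.429 in Vector+EST. Ebp lies on chromosome X at a distance of 207.3 kb from Gata1.

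Sc5d (Entrez 235293, chr9:42251595-42264256, minus) introduces a double bond into the ring to give dehydrocholesterol, and Dhcr7 (Entrez 13360, chr7:143823145-143848410, plus) reduces that sterol in the last ring step. Sc5d stood at 68.3, 67.2 and 63.9 CPM in Vector, 58.0, 57.8 and 56.1 CPM in Vector+EST, 195, 206 and 209 CPM in the SREBP2 group and 220, 195 and 201 CPM in SREBP2+EST. Dhcr7 stood at 171, 171 and 174 CPM in Vector, 126, 124 and 129 CPM in Vector+EST, 542, 582 and 607 CPM in the SREBP2 group and 599, 548 and 568 CPM in SREBP2+EST. Both were lower in every Vector+EST library than in every Vector library. EST lowered Sc5d by 1.16-fold (log2 -0.21 ± 0.05, edgeR adjusted p = 0.00165) and Dhcr7 by 1.36-fold (log2 -0.45 ± 0.05, adjusted p = 2.20e-07), and SREBP2 with EST raised them by 3.58-fold (log2 1.84 ± 0.05, adjusted p = 6.62e-14) and 4.53-fold (log2 2.18 ± 0.05, adjusted p = 2.78e-15).

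**Figure D3:**
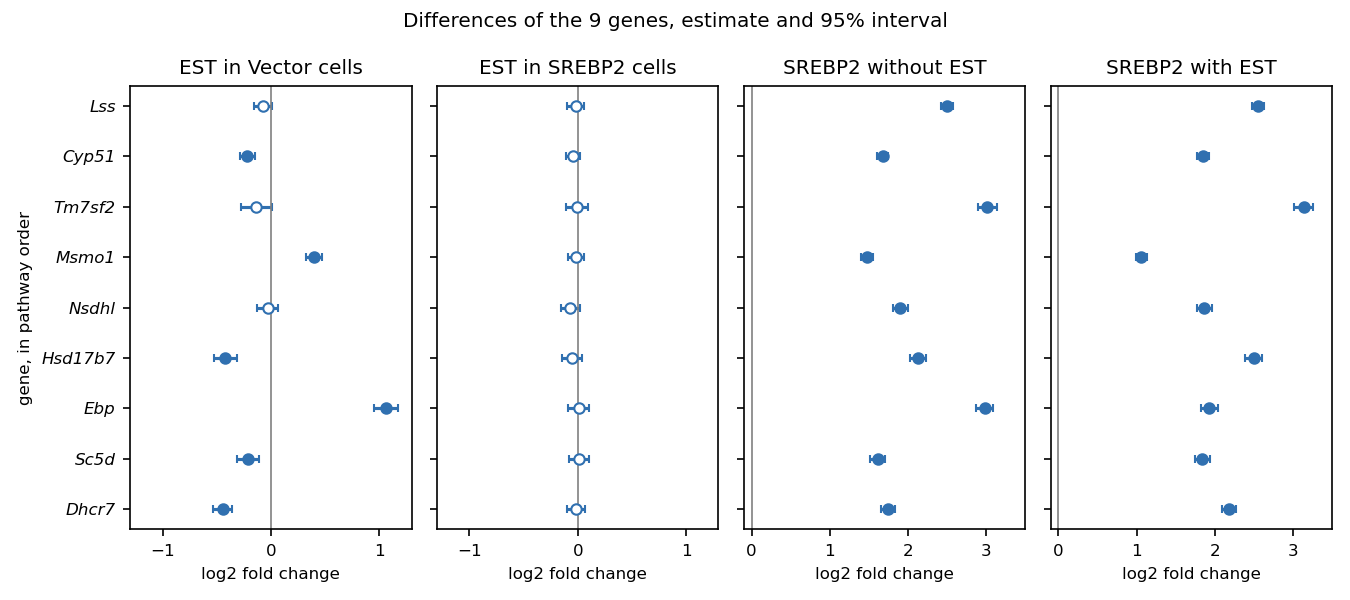
Log2 fold changes of the 9 genes, in pathway order, for EST in Vector cells, EST in SREBP2 cells, SREBP2 without EST and SREBP2 with EST. Points are edgeR estimates, bars are 95% intervals, and filled points passed an adjusted p of 0.05. EST in Vector cells ranges from -0.45 (Dhcr7) to 1.06 (Ebp), EST in SREBP2 cells from -0.07 (Nsdhl) to 0.01 (Sc5d), and both SREBP2 panels lie above 1.

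In SREBP2 cells EST moved 0 of the 9 genes past the threshold in either direction (0% of all genes higher and 0% lower). The log2 differences ran from -0.07 (Nsdhl, 95% interval -0.16 to 0.02) to 0.01 (Sc5d, 95% interval -0.08 to 0.11). Ebp, which EST raised in Vector cells, differed by 0.01 (95% interval -0.09 to 0.11). Without library 1 of SREBP2 and library 1 of SREBP2+EST, Nsdhl (log2 -0.14, edgeR adjusted p = 0.0138) and Hsd17b7 (log2 -0.14, adjusted p = 0.0107) were lower with EST.

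The difference between both EST effects was tested as an interaction. It passed in 6 of the 9 genes, a share near the background, higher in SREBP2 cells for Cyp51, Hsd17b7, Sc5d and Dhcr7 (29.8% of all genes higher) and lower for Msmo1 and Ebp (29.2% of all genes lower). Lss (0.05 ± 0.06), Tm7sf2 (0.12 ± 0.09) and Nsdhl (-0.04 ± 0.07) did not pass. SREBP2+EST against Vector, the pair that differs in both agents, gave 9 of 9 higher (38.6% of all genes higher) with a median of 1.84 against 0.04 over all genes, from 1.46 for Msmo1 to 3.00 for Tm7sf2. Markers of other cells moved in this pair too. Of 7 stromal markers tested 5 were higher and 2 lower, and of 4 neural markers tested 3 were lower (34.2% of all genes lower).

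Summed over the 9 genes, the branch held 1199, 1193 and 1174 CPM in Vector, 1233, 1209 and 1233 CPM in Vector+EST, 4408, 4698 and 4778 CPM in the SREBP2 group and 4719, 4376 and 4563 CPM in SREBP2+EST. The group means were 1189 ± 13.1 (SD, n = 3), 1225 ± 13.9, 4628 ± 195 and 4553 ± 171 CPM. Within the sum the weight moved between genes with EST in Vector cells: Msmo1 went from 25.6% to 32.7% and Dhcr7 from 14.5% to 10.3%. The 11 enzymes before the branch, from acetyl-CoA to squalene epoxide, summed to 2544 ± 36.5 CPM in Vector and 1780 ± 42.9 CPM in Vector+EST.

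**Figure D4:**
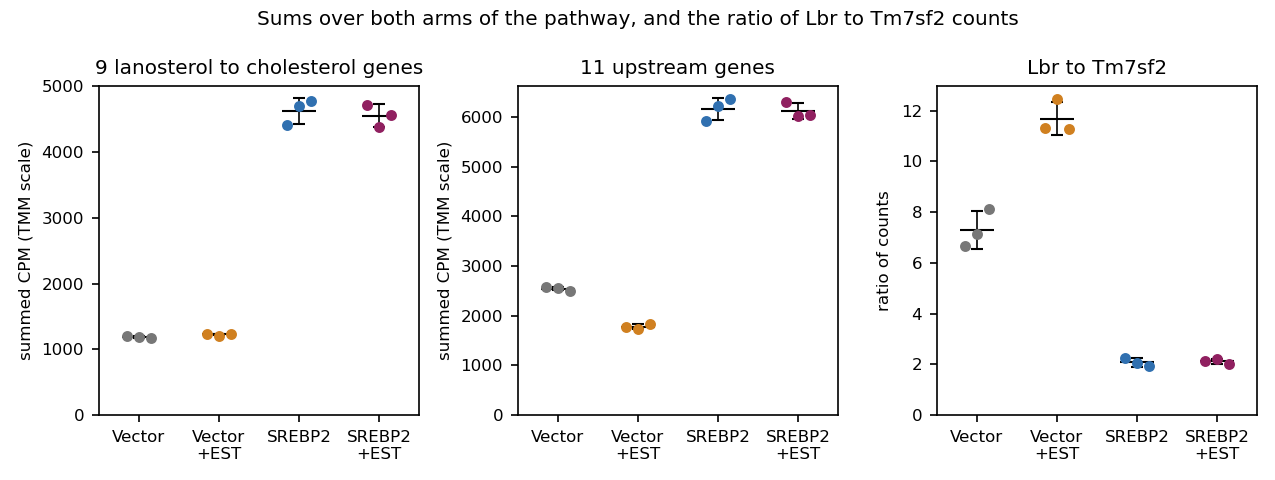
Summed CPM of the 9 lanosterol to cholesterol genes, summed CPM of the 11 upstream genes, and the ratio of Lbr to Tm7sf2 counts in each library. Points are libraries, the bar is the mean of 3 libraries and the whisker is ±1 SD. The 9-gene sum is 1189 CPM in Vector and 1225 CPM in Vector+EST, the upstream sum falls from 2544 to 1780 CPM, and both are highest in the SREBP2 groups.

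Of the 11 upstream enzymes, EST in Vector cells lowered 9 (35.5% of all genes fell) and raised 0, with a median log2 difference of -0.41 against -0.13 over the 9 branch genes. Idi1, the isopentenyl diphosphate isomerase, fell most (log2 -0.96 ± 0.06), and Sqle, the epoxidase whose product Lss uses, fell by 0.58 ± 0.05 on the log2 scale (edgeR adjusted p = 8.57e-09). Of the 11, 10 were higher in SREBP2 than in Vector (37.7% of all genes rose) and 10 in SREBP2+EST than in Vector+EST (14%), with medians of 1.25 and 1.87. Pmvk, phosphomevalonate kinase, had the largest difference, 2.49 ± 0.06 without and 2.67 ± 0.06 with EST, and Acat1, the mitochondrial acetyl-CoA acetyltransferase, the smallest (-0.05 ± 0.06 and -0.08 ± 0.06, not called).

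Of the genes that work beside the 9 enzymes, Lbr, the lamin B receptor, holds the same reductase activity as Tm7sf2, and stood at 156, 164 and 164 CPM in Vector and 241, 236 and 232 CPM in Vector+EST (log2 0.55 ± 0.04, edgeR adjusted p = 1.15e-09). The Vector and Vector+EST libraries did not overlap, and Lbr rose with SREBP2 by 0.67 ± 0.04 with EST. The ratio of Lbr to Tm7sf2 counts was 7.30 ± 0.742 (SD, n = 3) in Vector, 11.7 ± 0.656 in Vector+EST, 2.08 ± 0.167 in SREBP2 and 2.12 ± 0.0971 in SREBP2+EST. The Lbr transcript is the longer, and per kilobase of longest transcript the ratio of the group means was 3.10, 4.98, 0.884 and 0.902 in the same order. By median transcript length Lbr stood above Tm7sf2 in SREBP2+EST (601 against 237 CPM per kb), so which gene is higher in the SREBP2 groups depends on the length used. Erg28, a scaffold of the C4-demethylation complex, differed by -0.07 ± 0.07 with EST (adjusted p = 0.395, but -0.11 and 0.0146 without both libraries 1) and by 1.82 ± 0.07 with SREBP2 and EST. Ebpl, a relative of Ebp, differed by 0.30 ± 0.14 with EST (adjusted p = 0.0712, and 0.0219 with only the compared groups in the fit), and Faxdc2 did not enter the tests.

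Cyp51, Msmo1 and Sc5d need electrons from Por, the P450 reductase, or from the cytochrome b5 system. The 8 genes listed here, of which 7 were tested, also include Pgrmc1 and Pgrmc2, which bind heme and are not electron donors. EST in Vector cells lowered 6 of the 7 (35.5% of all genes fell) and raised 0. Pgrmc1, a heme-binding partner of P450 enzymes, fell most (log2 -0.88 ± 0.08). SREBP2 with EST raised 5 (14% of all genes rose) and lowered 0, with Pgrmc2 highest at 1.13 ± 0.05 and Cyb5b, the outer mitochondrial cytochrome b5, at 0.98 ± 0.04. Without EST, Por, Cyb5b and Pgrmc2 were higher in SREBP2 than in Vector and Cyb5a, Cyb5r1 and Pgrmc1 were lower, 3 of 7 each way, near the background of 37.7% higher and 33.8% lower. EST in Vector cells had lowered the latter 3 (log2 -0.62 for Cyb5a, -0.50 for Cyb5r1 and -0.88 for Pgrmc1) and also Por (-0.33) and Pgrmc2 (-0.36), while Cyb5b did not pass the test (0.01).

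Of 11 genes of sterol sensing and uptake, 10 entered the tests. EST in Vector cells raised 3 and lowered 3, near the background of 35.2% and 35.5%, and Insig2, which holds SCAP in the endoplasmic reticulum, rose most (log2 1.33 ± 0.08), while Insig1 was not tested. With SREBP2, 8 of 10 were higher without EST (37.7% of all genes) and 6 of 10 with EST (14%), and both counts include Srebf2, whose row may hold reads of the introduced fragment. Scap, which escorts SREBP2 out of the endoplasmic reticulum, was lower in SREBP2 than in Vector, with a log2 difference of -0.39 ± 0.05 (edgeR adjusted p = 9.67e-07). EST alone lowered Scap in Vector cells (log2 -0.25 ± 0.05, adjusted p = 0.000133), and with EST in both groups the SREBP2 difference was -0.12 ± 0.05 and did not pass the test (adjusted p = 0.0761).

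Over the 12 libraries each gene was compared with the mean standardised log2 CPM of the other 8. Pearson's r was from 0.944 (Ebp) to 0.9996 (Lss), which describes the step between the SREBP2 groups and the Vector groups that all 9 share. Over the 6 Vector and Vector+EST libraries alone, r ran from -0.919 (Ebp) to 0.676 (Nsdhl) and was below 0 for Cyp51, Msmo1, Hsd17b7, Ebp, Sc5d and Dhcr7. The 10 genes outside the branch with the most similar pattern, of 8486 whose mean log2 CPM reached 3, were Clcn6, Cyb5b, Tubb2b, Ptms, Nfe2l1, Pmvk, Mvk, Ppfia3, Erg28 and Aldoc, with r of 0.997 to 0.999, and 176 genes had r over 0.95. Only 2 of the 10 stayed among the first 10 by Spearman's rho. Per kilobase of longest transcript, Msmo1 was highest of the 9 in every group (149 CPM per kb in Vector and 410 in SREBP2+EST, as by median transcript length), and Ebp went from rank 6 in Vector (28.7 CPM per kb) to rank 2 in Vector+EST (59.8 CPM per kb), or from rank 6 to rank 3 by median length.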

How the data were processed

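RNA was sequenced with poly(A) selection as single-end reads on a DNBSEQ instrument, per the labels. The authors deposited estimated counts per gene, not normalized, and the processing notes name HISAT2 2.0.4, Bowtie2 2.2.5, RSEM 1.2.12 and DESeq2 1.4.5 with build GRCm38.p6 without their roles. A second deposited table holds the authors' own comparisons (log2 fold changes and p-values) and was not used. Here the estimated counts were rounded, filtered by filterByExpr (6033 of 17210 genes left out), scaled by TMM and tested with edgeR 4.0.16 in R 4.3.3 (quasi-likelihood F-test, all 12 libraries in 1 fit, 1 mean per group, Benjamini-Hochberg over 11177 genes, threshold 0.05). Standard errors were derived from each log2 fold change and its F. Groups came from sample titles. Alternatives were DESeq2 1.42.0, other scalings and filters, fits of the compared groups only, libraries left out and a block on header number. On simulated data for SREBP2 without EST, 177 of 200 changed genes were recovered with 10 of 187 calls false. The simulation changed 200 of 11177 genes, whereas 37.7% were called higher and 33.8% lower in the data. Its rate of false calls therefore need not hold there. Transcript lengths and overlaps came from GENCODE on GRCm38. The 9 genes, all gene lists and all tests were chosen with earlier results of these data known; all 9 genes, and of each list the largest and smallest differences plus fixed members, were named, except a few genes that are not reported here. Lss, Cyp51, Hsd17b7 and Sc5d have decimal counts, so reads were shared with other transcripts. Counts of Lss and Cyp51 overlap antisense or opposite-strand genes (381 and 166 exon bases), and no strand setting is given in the sources used here.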

Additional observations from a re-analysis of the deposited data

Results flagged for a closer look

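For 6 of the 9 genes the EST effect differed between SREBP2 cells and Vector cells by the interaction test of edgeR (quasi-likelihood, Benjamini-Hochberg over 11177 genes), a share near that of all genes, of which 29.8% were higher and 29.2% lower. The difference, SREBP2 cells minus Vector cells on the log2 scale, was 0.17 for Cyp51 (adjusted p = 0.00724), 0.36 for Hsd17b7 (adjusted p = 0.000444), 0.23 for Sc5d (adjusted p = 0.0102) and 0.43 for Dhcr7 (adjusted p = 1.94e-05), all of which EST had lowered in Vector cells. It was -0.42 for Msmo1 (adjusted p = 4.07e-06) and -1.05 for Ebp (adjusted p = 8.25e-09), both of which EST had raised in Vector cells. In all 6 the EST effect in SREBP2 cells lay between -0.06 (Hsd17b7) and 0.01 (Sc5d). Without library 1 of both SREBP2 groups it was -0.14 for Hsd17b7 (adjusted p = 0.0107) and -0.09 for Cyp51 and Dhcr7 (adjusted p = 0.0693 and 0.0903), and with single libraries left out it ran from -0.11 to -0.02 for Hsd17b7. The SREBP2 libraries without EST stood close to those with EST over all genes, a difference whose part in these values was not tested.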

How the results depend on the processing

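The 9 rises with SREBP2, without and with EST, kept their direction and call under all 20 alternatives. The EST calls in Vector cells of Cyp51, Msmo1, Hsd17b7, Ebp, Sc5d and Dhcr7 also did. Ebpl gained an EST call in Vector cells in 3 alternatives and Erg28 in 1. Lss gained a call in 7 of 20 alternatives and Tm7sf2 in 3. For EST in SREBP2 cells, 2 of the 9 genes were lower without library 1 of SREBP2 and of SREBP2+EST (0 in the main result), where Ebp (-0.0393) and Sc5d (-0.0665) also changed sign. Over the libraries left out singly the difference ran from -0.0226 to 0.0416 for Ebp, -0.0367 to 0.0459 for Sc5d, -0.114 to -0.022 for Hsd17b7, -0.0498 to 0.00707 for Lss, -0.049 to 0.0238 for Tm7sf2, -0.0525 to 0.0125 for Msmo1, -0.057 to 0.0248 for Dhcr7, and for the interaction of Nsdhl from -0.0919 to 0.0126. The header numbers did not pair the libraries: deviations of same-numbered libraries correlated at -0.17 to 0.07 in 13 pairs, and 1 of 12 libraries correlated best with its own number. With the replicate block the difference of EST in SREBP2 cells was 0.00433 for Lss, 0.00284 for Tm7sf2, 0.0119 for Msmo1 and 0.014 for Dhcr7, the interaction of Nsdhl was 0.0123, and that of Cyp51 lost its call (0.19, adjusted p = 0.0503), while 1005 genes were higher and 203 lower for SREBP2 with EST, against 1560 and 888. Over the libraries left out singly these counts ran from 1263 to 1798 higher and from 510 to 1286 lower. The lower count was 1768 with scaling by library totals only and 1576 without library 1 of both SREBP2 groups. Leaving out Vector replicate 5 called the interaction of Tm7sf2 (0.23). The background shares of the CCAAT box, GC box, E-box and GATA letters differ between all windows and tested genes, as given beside them. The call of Vps51 for SREBP2 without EST was also lost with the replicate block (adjusted p = 0.123). Depth of 18700959 counts or more left no member at a low count.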
